A study of Homo sapiens with 14 samples.

Results

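The 40 genes described here encode proteins of the lysosome and of autophagy, and were picked by name. They comprise 9 glycosidases, 5 genes of the sulfatase group, 8 cathepsins and other lysosomal peptidases, 5 lipid hydrolases and lipid carriers, 5 lysosomal membrane proteins, 2 subunits of the V-ATPase proton pump, 2 transcription factors (TFEB and TFE3) and 4 autophagy genes (CALCOCO1, SQSTM1, MAP1LC3B and GABARAPL1). Each symbol was found once among the 23040 genes listed in the files. All 40 were among the 13427 genes that reached at least 1 RPKM (reads per kb of transcript and per M mapped reads, where M stands for megareads) in at least 2 of the 14 libraries. The lowest was GAA, the acid alpha-glucosidase, at 0.600 to 1.31 RPKM in Panc-1, against 0.530 to 1.00 RPKM in AsPC-1, and it reached 1 RPKM in 3 libraries, while each of the other members reached it in all 14.

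The lysosome is an acidic compartment, filled with protons by the V-ATPase, in which cathepsins cut proteins and glycosidases, sulfatases and lipases take apart sugar chains and lipids. Autophagy wraps cytoplasm in membranes that carry lipid-bound proteins of the LC3 and GABARAP families, loads selected cargo through receptors such as p62 (SQSTM1), and delivers it to the lysosome. TFEB and TFE3 bind CACGTG-type elements in the promoters of many of these genes and are held in the cytoplasm by active mTORC1 kinase, and pancreatic ductal adenocarcinoma is known for high basal autophagy.

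The study measured RNA in Panc-1 and AsPC-1, established human pancreatic cancer cell lines, the first grown from a primary tumour and the second from ascites. Each line was treated with EGF (epidermal growth factor) at 50 ng/ml or with ANG (angiogenin, also called ribonuclease 5) at 1 ug/ml, for 1, 5 or 24 h and without serum, and 1 mock library per line came from untreated cells. The series' title presents ANG as a ligand of the EGF receptor, so EGF against ANG and each ligand against mock are the comparisons the design implies. There was 1 library in each of the 14 groups, and neither the time at which mock cells were taken nor whether they were serum-starved is given in the labels.

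The libraries held an estimated 11.1 to 16.7 M reads each in Panc-1, with a median of 15.0 M, against 18.7 to 23.7 M reads each in AsPC-1, with a median of 21.0 M. A single read on a 2 kb transcript thus adds 0.0211 to 0.0450 RPKM. Genes shorter than 400 bp took 5.11 to 17.2% of the reads, which lowers the RPKM of all other genes in a library. The median level of all tested genes, as log2(RPKM + 1), was 3.15 to 3.20 in the 4 AsPC-1 libraries of 1 and 5 h and 3.25 with EGF at 24 h, against 3.41 with ANG at 24 h and 3.46 in mock, and 3.31 to 3.44 over all 7 Panc-1 libraries. All 8 epithelial markers examined passed the filter, with a summed level of 900 to 1380 RPKM in Panc-1, against 1888 to 2467 RPKM in AsPC-1, whereas none of the 5 stromal and none of the 5 acinar and islet markers did. KRT8, KRT18 and KRT19 each had 250 RPKM or more in every library. KRT17 passed through AsPC-1 only, at up to 2.78 RPKM, and lay at 0.0400 to 0.120 RPKM in Panc-1. EPCAM lay at 4.88 to 5.58 RPKM in Panc-1, against 149 to 230 RPKM in AsPC-1. Of the leukocyte markers reported here, LYZ and CD14 passed, while PTPRC, CD3E and ITGAM did not. LYZ lay at 1.84 to 3.53 RPKM in Panc-1, against 93.8 to 503 RPKM in AsPC-1.

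Promoter sequence was available for 28 of the 40 members, as the 250 bases before and 50 bases after the annotated start in RefSeq (assembly GRCh38.p14, whereas the files use hg19). The 12 without an entry were HEXA, MANBA, NAGLU, ARSA, ASAH1, CTSB, CTSS, LAMP2, PSAP, SGSH, CALCOCO1 and ATP6V1H. The letters CACGTG, which read the same on both strands, stood in 8 of the 28 windows (28.6%), against 8.77% of all 27305 genes with a window. These were GAA, ARSB, CTSA, CTSD, LAMP1, MCOLN1, SUMF1 and ATP6V0D1. The longer form TCACGTGA, which contains the shorter one, stood in 5 of the 28 (17.9%) against 1.18% of all genes, and the CLEAR-type element, which adds a G before and a C after those letters, in GAA and MCOLN1 (7.14%) against 0.421% of all genes. The 4 windows that follow are shown because they carry CACGTG at least 2 times. CACGTG is in capitals, and each ends just before the start, except that of LAMP1, which runs from position -200 to position 10 and holds 6 copies.
GAA, chr17:80101481-80101580, plus strand: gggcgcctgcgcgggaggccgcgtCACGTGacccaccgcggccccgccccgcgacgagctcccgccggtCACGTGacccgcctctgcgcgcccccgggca
MCOLN1, chr19:7522524-7522623, plus strand: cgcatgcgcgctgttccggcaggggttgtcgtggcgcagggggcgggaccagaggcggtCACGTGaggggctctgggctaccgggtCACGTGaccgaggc
LAMP1, chr13:113297039-113297248, plus strand: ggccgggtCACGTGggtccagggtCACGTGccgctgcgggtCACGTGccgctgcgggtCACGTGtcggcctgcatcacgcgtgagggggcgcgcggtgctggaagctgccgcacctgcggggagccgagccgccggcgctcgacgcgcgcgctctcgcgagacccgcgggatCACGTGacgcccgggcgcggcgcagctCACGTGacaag
CTSA, chr20:45891235-45891334, plus strand: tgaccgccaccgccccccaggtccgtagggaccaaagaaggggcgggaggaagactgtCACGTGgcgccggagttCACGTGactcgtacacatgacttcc

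Windows of 3 of the members that were called lower with EGF at 5 h are shown for contrast. SLC17A5, GABARAPL1 and FUCA1 hold no CACGTG in their whole 300-base window, which says only that these letters are not there.
SLC17A5, chr6:73653993-73654092, minus strand: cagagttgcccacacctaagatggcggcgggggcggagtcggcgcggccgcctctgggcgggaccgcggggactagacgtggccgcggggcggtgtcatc
GABARAPL1, chr12:10212777-10212876, plus strand: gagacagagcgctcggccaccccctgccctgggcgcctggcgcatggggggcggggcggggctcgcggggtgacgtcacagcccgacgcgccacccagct
FUCA1, chr1:23868291-23868390, minus strand: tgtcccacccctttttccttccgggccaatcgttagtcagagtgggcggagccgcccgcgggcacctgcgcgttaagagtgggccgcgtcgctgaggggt

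More of these genes differed between the 2 cell lines than in any comparison of ligand or time. Panc-1 held more RNA for 21 of the 40 members and AsPC-1 for 13, by limma across all 14 libraries with the condition as a block (adjusted p under 0.05), so that 85% of the members passed, compared with 68.8% of all genes tested (39.6% higher and 29.3% lower in Panc-1). Here, as in every comparison below, the p-value measures the spread between these libraries, which need not be separate cultures. In bulk RNA, fewer cells expressing a gene and less RNA per cell cannot be told apart.

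Among the peptidases, CTSD, the aspartic protease cathepsin D (chr11:1773985-1785222, hg19, minus strand), lay at 685 to 806 RPKM (median 715) in Panc-1, against 61.2 to 99.0 RPKM (median 90.6) in AsPC-1. The lines did not overlap, and the log2 difference was 3.07 ± 0.09 (SE, 7 of 7 condition pairs, limma adjusted p = 1.39e-08). MOB2 overlaps it on the same strand by 11238 bp at 19.9 RPKM or less. The cysteine proteases CTSB and CTSS ran the other way. CTSB (cathepsin B) lay at 99.7 to 121 RPKM in Panc-1, against 246 to 309 RPKM in AsPC-1 (log2 difference -1.33 ± 0.07, limma adjusted p = 6.53e-07), and CTSS (cathepsin S) at 1.47 to 2.88 RPKM in Panc-1, against 5.56 to 8.96 RPKM in AsPC-1 (-1.40 ± 0.09, limma adjusted p = 1.19e-06). CTSA, the protective protein of beta-galactosidase and neuraminidase, was lower in Panc-1 as well (-1.11 ± 0.09). Of the 8 peptidases, 2 were higher and 5 lower in Panc-1.

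The lipid-handling genes were mostly higher in Panc-1, 4 of 5. PSAP, the precursor of the saposins that present sphingolipids to their hydrolases (chr10:73576055-73611082, hg19, minus strand), was the most abundant member at 1637 to 2776 RPKM (median 1745) in Panc-1, against 369 to 575 RPKM (median 477) in AsPC-1, a log2 difference of 2.16 ± 0.20 (SE, limma adjusted p = 1.71e-05). LIPA, the acid lipase that releases cholesterol and fatty acids, had 71.9 to 99.1 RPKM in Panc-1, against 16.9 to 23.2 RPKM in AsPC-1 (2.03 ± 0.08). The exception was ASAH1, the acid ceramidase, at 8.23 to 12.5 RPKM in Panc-1, against 19.2 to 44.1 RPKM in AsPC-1 (-1.58 ± 0.09, limma adjusted p = 1.05e-06).

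Membrane proteins and sugar hydrolases were also split. LAMP2, a heavily glycosylated protein of the lysosomal membrane, lay at 30.7 to 39.9 RPKM in Panc-1, against 3.91 to 7.58 RPKM in AsPC-1 (log2 difference 2.34 ± 0.11), while its relative LAMP1 differed far less, at 62.9 to 69.2 RPKM in Panc-1, against 42.5 to 59.2 RPKM in AsPC-1 (0.40 ± 0.07, limma adjusted p = 0.00131). HEXA, the alpha subunit of beta-hexosaminidase, had 60.3 to 79.7 RPKM in Panc-1, against 18.9 to 23.6 RPKM in AsPC-1 (1.67 ± 0.07). By role, 5 of 9 glycosidases were higher and 2 lower in Panc-1, 3 of 5 of the sulfatase group were higher, 3 of 5 membrane proteins were higher and 2 lower, and 1 of the 2 V-ATPase subunits was lower.

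The 2 transcription factors differed between the lines in opposite directions. TFE3 lay at 17.4 to 23.8 RPKM in Panc-1, against 5.88 to 9.15 RPKM in AsPC-1 (log2 difference 1.34 ± 0.08, limma adjusted p = 1.03e-06). TFEB lay at 1.37 to 2.88 RPKM in Panc-1, against 2.20 to 15.0 RPKM in AsPC-1 (-1.24 ± 0.22, limma adjusted p = 0.00111, 7 of 7 pairs), with ranges that overlap. Of the autophagy genes, GABARAPL1 (2.0 ± 0.15), MAP1LC3B (1.54 ± 0.18) and SQSTM1 (0.92 ± 0.12) were higher in Panc-1 and CALCOCO1 slightly lower (-0.30 ± 0.09, 6 of 7 pairs, limma adjusted p = 0.0153). SQSTM1, which encodes p62, lay at 451 to 646 RPKM in Panc-1, against 234 to 348 RPKM in AsPC-1, and MGAT4B on the opposite strand overlaps it by 565 bp at up to 162 RPKM. The remaining members higher in Panc-1 were ARSB, GLA, NPC2, SLC17A5, SGSH, MANBA, SUMF1, FUCA1, TPP1, MAN2B1 and SMPD1, with log2 differences of 0.26 to 1.03. The remaining lower ones were CTSL1, ATP6V0D1, GLB1, CTSZ, NAGLU, MCOLN1 and SCARB2, at -0.96 to -0.29. GAA, GUSB, IDS, ARSA, CTSH and ATP6V1H did not pass. Leaving out any 1 library left 31 to 33 members called.

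**Figure D1:**
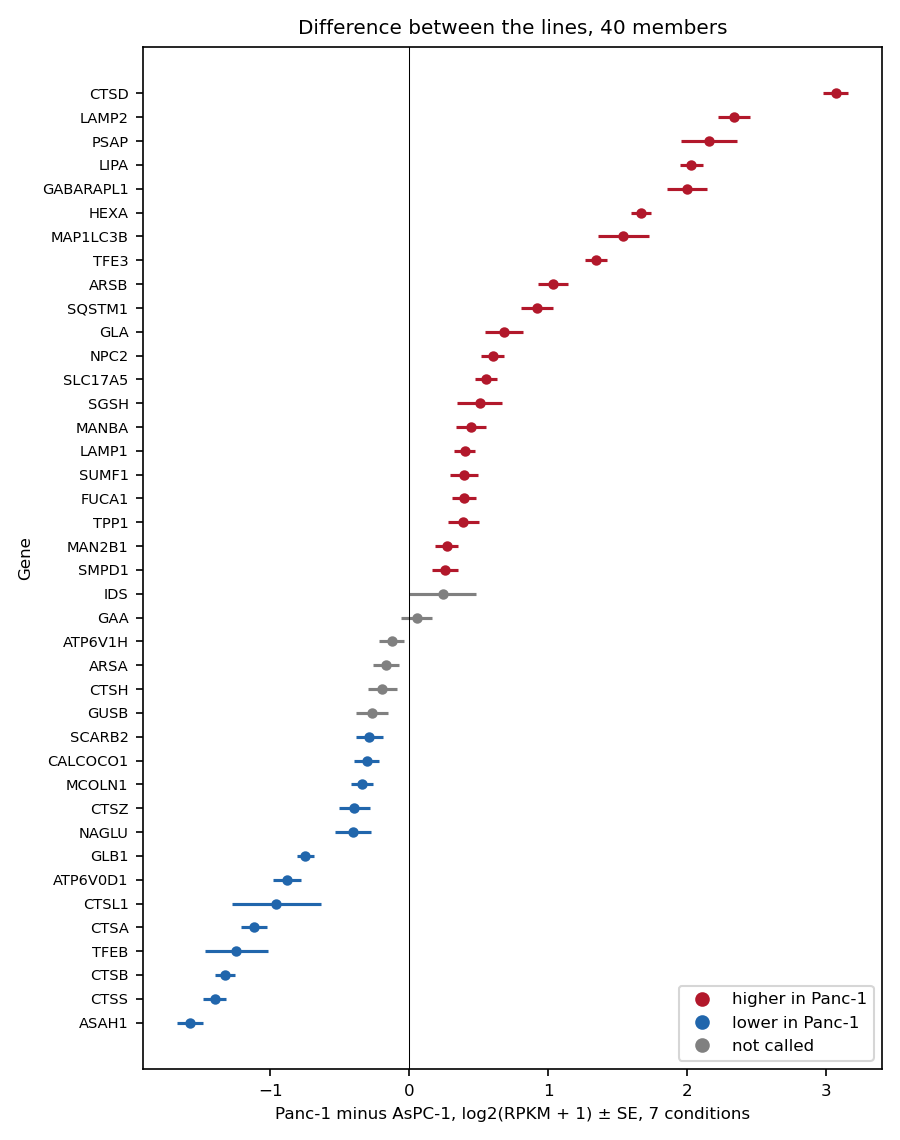
Difference between Panc-1 and AsPC-1 in log2(RPKM + 1) for each of the 40 members, as the mean over 7 condition pairs with its SE from limma. Points right of 0 are higher in Panc-1: CTSD stands farthest right at 3.07 and ASAH1 farthest left at -1.58.

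Against mock, few members passed in any treatment, and those that did were all lower. With EGF at 1 h, 0 members were higher and 2 lower (background 0.209% higher and 0.454% lower of all genes), and with EGF at 5 h, 0 were higher and 4 lower (0.596% and 3.63%, or 4.22% in either direction), in limma fits over all 14 libraries with the line as a covariate. At an unadjusted p under 0.05, 1 member was higher and 11 lower with EGF at 1 h, and 2 were higher and 14 lower at 5 h. Of all 13427 genes, 2310 passed that unadjusted p in limma at 1 h and 2995 at 5 h, in either direction. Here and below, that all-gene count was not split by direction, so member counts by direction have no matching share. Of all genes, 63.1% lay below 0 at 1 h and 64.6% at 5 h. The 2 of 1 h are also among the 4 of 5 h, and both comparisons use the same 2 mock libraries. Because the labels give no mock time, the effect of a ligand and that of time or starvation cannot be told apart here. Of the 4 called at 5 h, CALCOCO1 had no promoter window, and SLC17A5, GABARAPL1 and FUCA1 held no CACGTG in theirs. With CACGTG in 8 of 28 member windows, so few windows cannot show whether it goes with these calls.

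CALCOCO1 (chr12:54104902-54121307, hg19, minus strand) encodes a cargo receptor for autophagy of the endoplasmic reticulum. With EGF it lay at 25.8 RPKM in mock, 10.5 at 1 h, 8.05 at 5 h and 19.8 at 24 h in Panc-1, and at 30.1 in mock, 11.8 at 1 h, 13.2 at 5 h and 19.8 RPKM at 24 h in AsPC-1. With ANG it lay at 10.4, 10.5 and 23.4 RPKM at 1, 5 and 24 h in Panc-1 and at 14, 15.5 and 27.2 RPKM in AsPC-1. With either ligand the early libraries (1 and 5 h) were low and the mock and 24 h ones high, and in neither line did they overlap. The log2 change with EGF was -1.25 ± 0.17 at 1 h (SE, limma adjusted p = 0.0315) and -1.35 ± 0.17 at 5 h (limma adjusted p = 0.0174), lower in 2 of 2 lines.

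SLC17A5 (chr6:74303102-74363737, hg19, minus strand) encodes sialin, which exports sialic acid from the lysosome. In the EGF course sialin RNA lay at 14.6 RPKM in mock, 6.33 at 1 h, 6.36 at 5 h and 11.4 at 24 h in Panc-1, and at 9.76 in mock, 3.72 at 1 h, 3.98 at 5 h and 5.76 RPKM at 24 h in AsPC-1. Under ANG sialin RNA lay at 6.30, 7.06 and 12.5 RPKM at 1, 5 and 24 h in Panc-1 and at 4.64, 4.75 and 9.16 RPKM in AsPC-1. The order of the libraries is that of CALCOCO1, low at 1 and 5 h and high in mock and at 24 h. It fell by 1.14 on the log2 scale with EGF at 1 h (SE 0.15, limma adjusted p = 0.0315) and by 1.10 at 5 h (SE 0.15, limma adjusted p = 0.0203).

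GABARAPL1 (chr12:10365489-10375724, hg19, plus strand) encodes an ATG8-family protein of the autophagosome membrane. In the EGF course GABARAPL1 lay at 25.1 RPKM in mock, 14.4 at 1 h, 12.2 at 5 h and 18.1 at 24 h in Panc-1, and at 7.26 in mock, 1.8 at 1 h, 1.78 at 5 h and 4.83 RPKM at 24 h in AsPC-1. With ANG it lay at 14.3, 15.7 and 19.5 RPKM at 1, 5 and 24 h in Panc-1 and at 2.19, 2.38 and 6.91 RPKM in AsPC-1. The early libraries again lay below mock and 24 h in both lines without overlap. Its near-identical copy GABARAPL3 was listed at 0.1 RPKM or less, so any reads split between them are few. The log2 change at 5 h of EGF was -1.27 ± 0.27 (SE, limma adjusted p = 0.0426), and at 1 h it was -1.16 ± 0.27, which did not pass (limma adjusted p = 0.0906). The call at 5 h was lost with a pseudocount of 0.1 RPKM (limma adjusted p = 0.0587), with no filter on low values (limma adjusted p = 0.0661) and with centring (limma adjusted p = 0.0556), and it passed in 2 of 14 fits without 1 library, those without a 24 h ANG library.

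FUCA1 (chr1:24171572-24194859, hg19, minus strand), the lysosomal alpha-fucosidase, was the fourth. FUCA1 under EGF lay at 14 RPKM in mock, 10.4 at 1 h, 8.23 at 5 h and 9.13 at 24 h in Panc-1, and at 13.3 in mock, 7.24 at 1 h, 6.05 at 5 h and 5.35 RPKM at 24 h in AsPC-1. With ANG it lay at 9.11, 8.78 and 11.7 RPKM at 1, 5 and 24 h in Panc-1 and at 5.99, 6.23 and 10.2 RPKM in AsPC-1. Unlike the other 3, its 24 h EGF library in AsPC-1 was the lowest of that line. The log2 change at 5 h of EGF was -0.86 ± 0.16 (SE, limma adjusted p = 0.0342), and the call was lost with centring (limma adjusted p = 0.0578).

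TFEB (chr6:41651716-41703997, hg19, minus strand) did not pass in any comparison with mock. Under EGF TFEB lay at 2.88 RPKM in mock, 1.37 at 1 h, 1.63 at 5 h and 2.5 at 24 h in Panc-1, and at 14.1 in mock, 3.93 at 1 h, 2.20 at 5 h and 10.1 RPKM at 24 h in AsPC-1. Under ANG TFEB lay at 1.52, 1.68 and 2.73 RPKM at 1, 5 and 24 h in Panc-1 and at 3.40, 3.82 and 15.0 RPKM in AsPC-1. All 8 libraries of 1 and 5 h lay below the mock and 24 h libraries of their own line. The log2 difference at 5 h of EGF was -1.40 ± 0.42 (limma adjusted p = 0.1). TFE3 had -0.05 ± 0.15 at 1 h and at 5 h of EGF (limma adjusted p = 0.884 and 0.862). Of the other autophagy genes at 5 h of EGF, SQSTM1 had -0.24 ± 0.22 and MAP1LC3B 0.89 ± 0.34, and neither passed (limma adjusted p = 0.533 and 0.181).

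**Figure D2:**
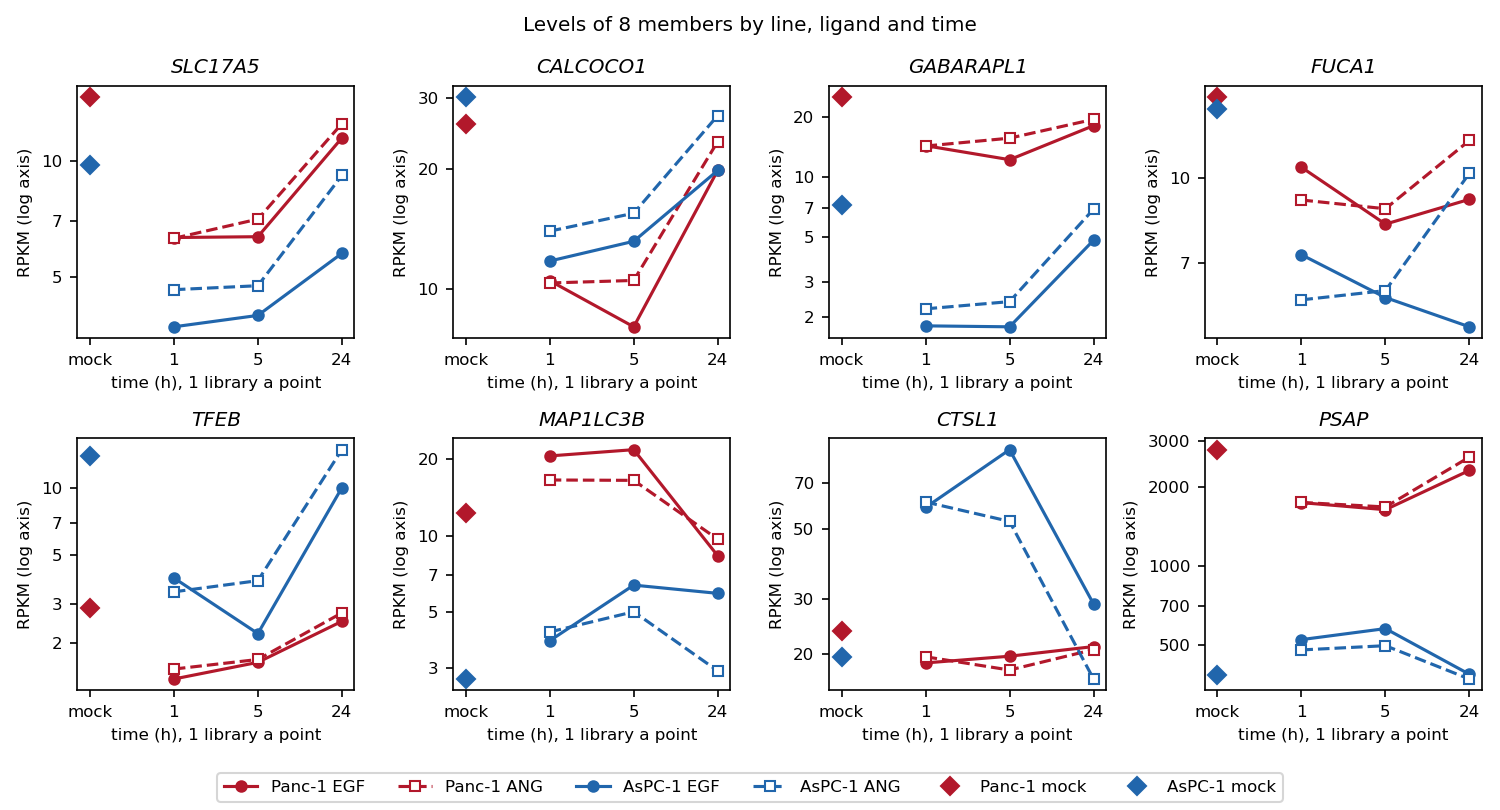
RPKM on a log axis of 8 members in mock and at 1, 5 and 24 h of EGF or ANG, in Panc-1 and AsPC-1, with 1 library at each point. SLC17A5, CALCOCO1, GABARAPL1 and TFEB dip at 1 and 5 h in both lines, while CTSL1 peaks there in AsPC-1, up to 89.6 RPKM.

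The remaining mock comparisons gave 0 calls among the members, in either direction. For ANG at 1 h the background was 0% higher and 0.0819% lower, and at an unadjusted p under 0.05 limma put 1 member higher and 9 lower. For ANG at 5 h it was 0% and 0.112%, with 0 members higher and 13 lower at that unadjusted p. For EGF at 24 h 0% of all genes passed, with 1 member higher and 11 lower at that unadjusted p, and for ANG at 24 h 0% passed, with 0 and 0. Of all 13427 genes, 2062 passed that unadjusted p with ANG at 1 h and 2391 with ANG at 5 h, in either direction. With EGF at 24 h 961 genes did, and with ANG at 24 h 202. CALCOCO1 with ANG had -1.15 ± 0.17 at 1 h (limma adjusted p = 0.0645) and -1.07 ± 0.17 at 5 h (limma adjusted p = 0.0563). SLC17A5 had -1.01 ± 0.15 at 1 h (limma adjusted p = 0.0647) and -0.93 ± 0.15 at 5 h (limma adjusted p = 0.0572). SMPD1, the acid sphingomyelinase, lay above mock in all 12 treated libraries, at 8.61 to 9.71 RPKM against 7.29 RPKM in mock in Panc-1 and at 5.14 to 9.49 RPKM against 4.93 RPKM in mock in AsPC-1. It did not pass in any mock comparison and was singled out after its values were seen. LAMP1 and CTSD had log2 differences of -0.13 ± 0.14 and -0.40 ± 0.17 at 24 h of EGF, and neither passed (limma adjusted p = 0.850 and 0.680).

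Taken as a list, the members lay a little below mock, and so did genes at large. Their median log2 difference was -0.21 with EGF at 1 h, against -0.12 over all genes, and -0.22 at 5 h against -0.16, and 31 of 40 members (77.5%) lay below 0 at 1 h, against 63.1% of all genes. When each library was centred on its own median, the all-gene median at 1 h of EGF moved to 0.03 and that of the members to -0.06, so these small list medians depend on the scaling. Under that centring CALCOCO1 had -1.10 at 1 h of EGF (limma adjusted p = 0.0645) and SLC17A5 -0.99 (limma adjusted p = 0.0507), so no member was called at 1 h and 2 were at 5 h. The 2 calls at 1 h were also lost without any 1 library other than the 24 h EGF libraries, and without all 24 h libraries. The 4 calls at 5 h fell to 0 without the mock or the 5 h EGF library of either line, and to 2 without any 1 of the 1 h libraries or of the 5 h ANG libraries.

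With no test, since each is 1 library against 1, single libraries were set against the mock of their line on the log2(RPKM + 1) scale, with the share of all genes in brackets. On that scale in Panc-1, SLC17A5 and CALCOCO1 were at least 2-fold lower with EGF at 1 h (2.11%) and 5 h (3.38%) and with ANG at 1 h (1.92%), and CALCOCO1 alone with ANG at 5 h (2.41%). No member was at least 2-fold higher in those 4 libraries (3.37%, 3.89%, 3.77% and 4.1% in the same order). In AsPC-1, 4 members were at least 2-fold lower with EGF at 1 h (12%) and 6 at 5 h (14.4%), and 4 with ANG at 1 h (10.9%) and 2 at 5 h (12.1%). The 6 were FUCA1, GUSB, SLC17A5, TFEB, CALCOCO1 and GABARAPL1, and only TFEB and GABARAPL1 were at least 2-fold lower in all 4 of these libraries. CTSL1 was the 1 member at least 2-fold higher in each of them (5.23%, 5.27%, 4.77% and 5%). At 24 h of ANG no member was 2-fold off in either line (0.0447 to 2.56% of all genes), and at 24 h of EGF the 2 that were, FUCA1 and ASAH1, were lower in AsPC-1 (2.76%). Ratios of RPKM with nothing added, computed after the data had been seen, put more low-level genes past 2-fold. In Panc-1 they gave 4 members lower with EGF at 1 h (6.95% of all genes) and 4 at 5 h (9.74%), and 2 with ANG at 1 h (6.66%) and 2 at 5 h (7.64%). This adds GAA and TFEB with EGF at 1 h, GAA and GABARAPL1 with EGF at 5 h, and SLC17A5 with ANG at 5 h. In AsPC-1 they gave 6 members lower with EGF at 1 h (20.4%) and 7 at 5 h (22.7%), and 5 with ANG at 1 h (18.2%) and 4 at 5 h (20.2%). There it adds MANBA and ARSB with EGF at 1 h, ARSB with EGF at 5 h, SLC17A5 with ANG at 1 and 5 h, and FUCA1 with ANG at 5 h. MAP1LC3B was then also at least 2-fold higher in AsPC-1, with EGF at 5 h (8.88% of all genes) and at 24 h (4.48%).

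**Figure D3:**
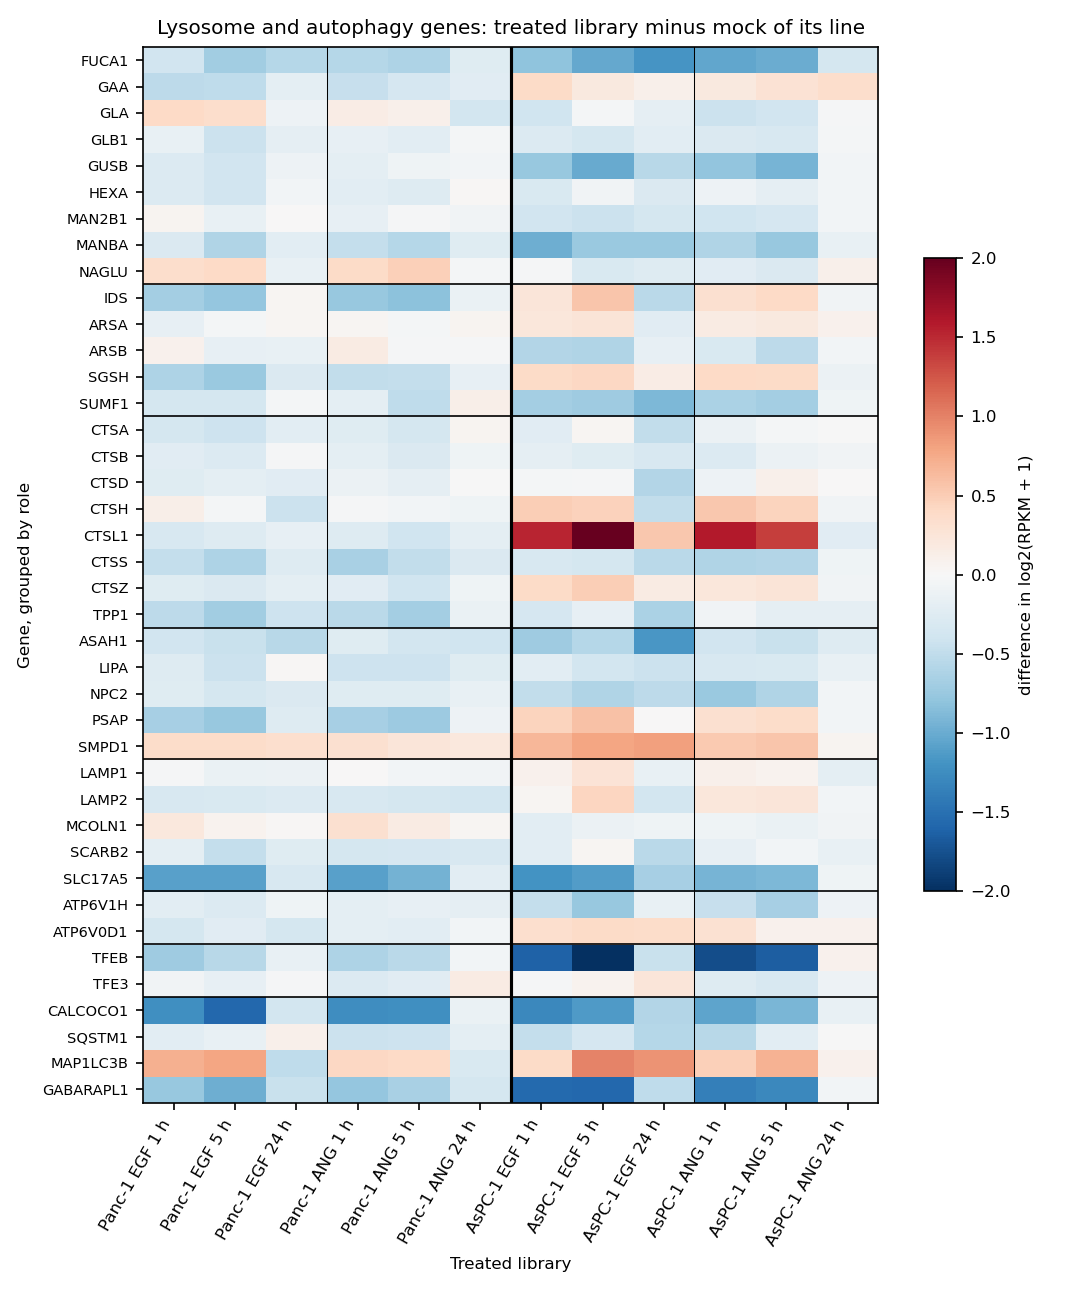
Difference from the mock library of the same line in log2(RPKM + 1), for the 40 members by role in the 12 treated libraries. The darkest blue (low) cells at 1 and 5 h are mostly SLC17A5, CALCOCO1, GABARAPL1 and TFEB, and the darkest red (high) cells in AsPC-1 at 1 and 5 h are CTSL1.

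Over time within the treated cells, 3 members were called higher and none lower. With 24 h set against 1 h over 4 courses (each line with each ligand), limma called 3 members higher and 0 lower, or 7.5% of them, against 3.44% of all genes higher and 2.92% lower. At an unadjusted p under 0.05 in limma, 6 members were higher and 1 lower, and 3381 of all 13427 genes passed in either direction. CALCOCO1 was up by 0.89 ± 0.12 (SE, limma adjusted p = 0.0120), GABARAPL1 by 0.78 ± 0.18 (limma adjusted p = 0.0427) and SLC17A5 by 0.75 ± 0.10 (limma adjusted p = 0.0112) on the log2 scale, each higher in 4 of 4 courses. TFEB had the largest difference, 1.04 ± 0.27, also in 4 of 4 courses, and did not pass (limma adjusted p = 0.0562). CTSH, named after its values were seen, was lower in 4 of 4 courses (-0.55 ± 0.15) and did not pass (limma adjusted p = 0.0625). Nor did SQSTM1 (0.25 ± 0.13), TFE3 (0.23 ± 0.09), CTSD (-0.08 ± 0.13), LAMP1 (-0.18 ± 0.09) or MAP1LC3B (-0.45 ± 0.23), at limma adjusted p of 0.151 to 0.733. These 1 h libraries also serve in the mock comparisons, so those values are not separate evidence. The 3 calls were lost (0 members called) without the 1 h library of Panc-1 ANG, of Panc-1 EGF or of AsPC-1 ANG. Those of CALCOCO1 and SLC17A5 passed in the other 9 of 12 fits without 1 library, and that of GABARAPL1 in 2 of 12, those without the 24 h ANG or the 24 h EGF library of Panc-1. The GABARAPL1 call was also lost with a pseudocount of 0.1 RPKM (limma adjusted p = 0.0515) and with no filter on low values (limma adjusted p = 0.0688). Between 5 h and 1 h limma called 0 members of 40 and 0% of all genes, with 0 members and 149 of all 13427 genes at an unadjusted p under 0.05.

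For several lysosomal genes the time course differed between the lines. The change from 1 to 24 h differed between Panc-1 and AsPC-1 for 9 members by limma's interaction term, 4 with a higher and 5 with a lower change in Panc-1. That is 22.5% of the members, a smaller share than the 36% of all genes (13.9% higher, 22.2% lower).

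PSAP with EGF lay at 2776 RPKM in mock, 1743 at 1 h, 1637 at 5 h and 2314 at 24 h in Panc-1, and at 383 in mock, 522 at 1 h, 575 at 5 h and 385 RPKM at 24 h in AsPC-1. With ANG it lay at 1745, 1677 and 2601 RPKM at 1, 5 and 24 h in Panc-1 and at 477, 495 and 369 RPKM in AsPC-1. The early libraries of Panc-1 were low and those of AsPC-1 high, and within each line they did not overlap with mock and 24 h. The 24 h change was higher in Panc-1 by 0.90 ± 0.23 on the log2 scale (limma adjusted p = 0.0192).

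IDS (chrX:148560295-148586884, hg19, minus strand), the iduronate 2-sulfatase of heparan and dermatan sulfate breakdown, followed the same pattern. Under EGF IDS lay at 48.8 RPKM in mock, 30.2 at 1 h, 28.2 at 5 h and 50.4 at 24 h in Panc-1, and at 27.3 in mock, 32.5 at 1 h, 40.4 at 5 h and 18.5 RPKM at 24 h in AsPC-1. The ANG course of IDS lay at 28.5, 27.3 and 44.4 RPKM at 1, 5 and 24 h in Panc-1 and at 34.4, 36.4 and 26.0 RPKM in AsPC-1. The early libraries were thus the low ones in Panc-1 and the high ones in AsPC-1. The difference of the 24 h changes was 1.25 ± 0.19 (limma adjusted p = 0.00283). SGSH, the sulfamidase of heparan sulfate breakdown, had 0.70 ± 0.15 (limma adjusted p = 0.0115). With EGF it lay at 12.5 RPKM in mock, 7.82 at 1 h, 7.03 at 5 h and 10.1 at 24 h in Panc-1, and at 5.14 in mock, 7.01 at 1 h, 7.19 at 5 h and 5.82 RPKM at 24 h in AsPC-1. The ANG values were 8.63, 8.70 and 11 RPKM at 1, 5 and 24 h in Panc-1 and 7.11, 6.99 and 4.68 RPKM in AsPC-1, with the same opposite order.

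CTSL1 (the older symbol of CTSL, cathepsin L, chr9:90340974-90346384, hg19, plus strand) differed most. In the EGF course CTSL1 lay at 23.8 RPKM in mock, 18.8 at 1 h, 19.7 at 5 h and 21.2 at 24 h in Panc-1, and at 19.6 in mock, 58.6 at 1 h, 89.6 at 5 h and 28.9 RPKM at 24 h in AsPC-1. Under ANG CTSL1 lay at 19.6, 17.8 and 20.7 RPKM at 1, 5 and 24 h in Panc-1 and at 61.1, 53.0 and 16.7 RPKM in AsPC-1. The level was nearly flat in Panc-1 and peaked at 1 and 5 h in AsPC-1 with both ligands. The difference of the 24 h changes was 1.52 ± 0.27 (limma adjusted p = 0.00483).

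Lower changes in Panc-1 were seen for MAP1LC3B, TFEB, GLA, GABARAPL1 and ARSB. MAP1LC3B (chr16:87425801-87438380, hg19, plus strand) encodes LC3B, the protein most used to mark autophagosomes. With EGF it lay at 12.3 RPKM in mock, 20.6 at 1 h, 21.8 at 5 h and 8.33 at 24 h in Panc-1, and at 2.72 in mock, 3.85 at 1 h, 6.38 at 5 h and 5.92 RPKM at 24 h in AsPC-1. With ANG it lay at 16.6, 16.5 and 9.68 RPKM at 1, 5 and 24 h in Panc-1 and at 4.17, 5.01 and 2.93 RPKM in AsPC-1. Panc-1 was highest at 1 and 5 h, the reverse of its relative GABARAPL1 in the same libraries. The difference of the 24 h changes was -1.02 ± 0.31 (limma adjusted p = 0.0379), and its near-identical copy MAP1LC3B2 was listed at 0.510 to 2.69 RPKM, so reads may be split between them. GLA, the alpha-galactosidase lacking in Fabry disease, had -0.82 ± 0.17 (limma adjusted p = 0.00856). With EGF GLA lay at 44 RPKM in mock, 58.4 at 1 h, 56.6 at 5 h and 41.0 at 24 h in Panc-1, and at 33.2 in mock, 24.9 at 1 h, 32.2 at 5 h and 29.1 RPKM at 24 h in AsPC-1. Under ANG GLA lay at 48.8, 47.5 and 34.0 RPKM at 1, 5 and 24 h in Panc-1 and at 24.4, 25.2 and 32.8 RPKM in AsPC-1. GABARAPL1 and TFEB moved the same way in both lines, with the larger change in AsPC-1 (differences of -0.82 ± 0.17 and -0.95 ± 0.26, limma adjusted p = 0.00891 and 0.0257). ARSB, the arylsulfatase B of dermatan sulfate breakdown, lay at 3.50 to 4.60 RPKM in Panc-1, against 1.00 to 2.03 RPKM in AsPC-1, and had -0.55 ± 0.15 (limma adjusted p = 0.0268).

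These 9 calls varied with the libraries and the scaling. They fell to 4 without the 1 h ANG, the 1 h EGF or the 24 h EGF library of Panc-1. They grew to 16 (13 higher, 3 lower) both when each library was centred on its median and when scaled to genes of at least 400 bp, so the split between directions rests on the scaling. The 36% of all genes is from the main fit, and shares under these settings are not reported here. MAP1LC3B passed under none of the 4 other settings (limma adjusted p = 0.0546 to 0.0886). TFEB passed under 2 of the 4 and was lost with a pseudocount of 0.1 RPKM (limma adjusted p = 0.0705). ARSB also passed under 2 of the 4.

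**Figure D4:**
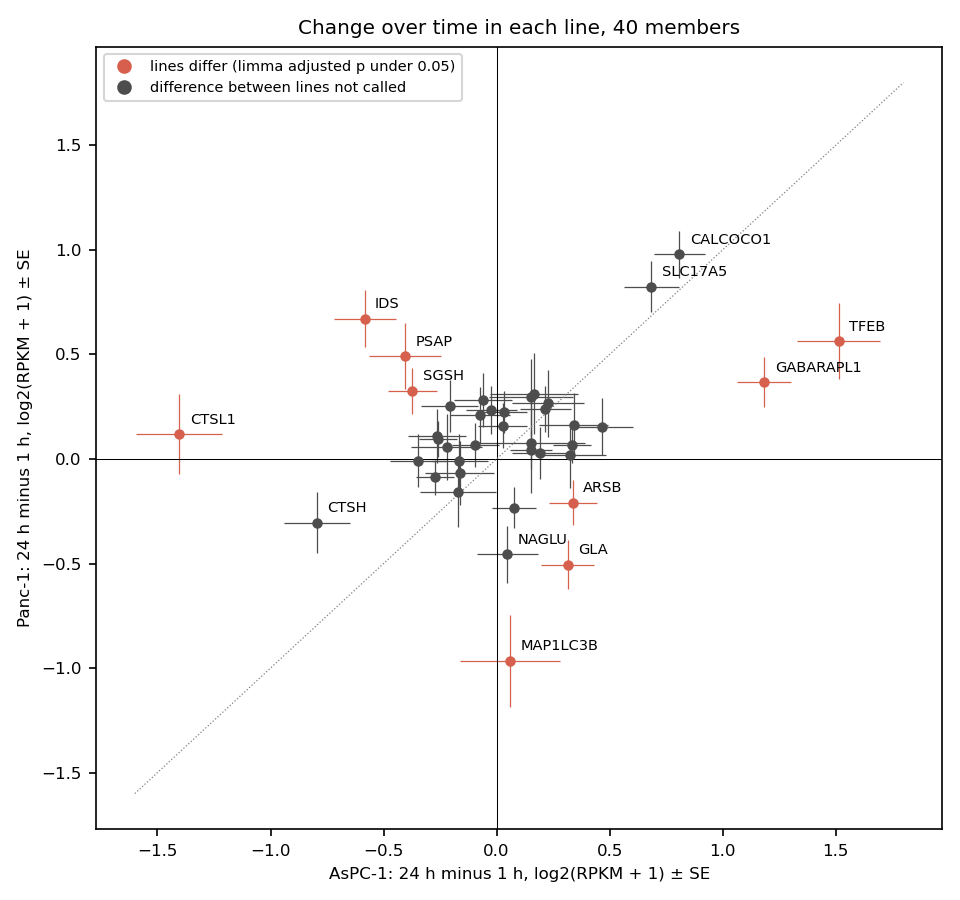
Change from 1 to 24 h in log2(RPKM + 1) for each of the 40 members, with Panc-1 and AsPC-1 on separate axes and SE from limma. CALCOCO1 and SLC17A5 rose in both lines, and IDS lies above 0 in Panc-1 (0.67) and below 0 in AsPC-1 (-0.58).

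The change within each line, chosen after the data had been seen, came from a joint limma fit to the treated libraries of both lines. That fit gives the direction of each change, but the SE and p of either line rest on the spread in both. In Panc-1, 3 members rose by 24 h and 3 fell (15% of the members, against 11.3% of all genes higher and 15.2% lower, or 26.6% in either direction): CALCOCO1 (0.98), SLC17A5 (0.82) and IDS (0.67) rose, and MAP1LC3B (-0.97), GLA (-0.51) and NAGLU (-0.46) fell on the log2 scale. In AsPC-1, 7 rose and 6 fell (32.5%), against 24.8% and 15.9% of all genes, or 40.7% in either direction. TFEB (1.51), GABARAPL1 (1.18), CALCOCO1 (0.81) and SLC17A5 (0.68) rose most, with GUSB (0.47), ARSB (0.34) and ATP6V1H (0.33), a V-ATPase subunit. CTSL1 (-1.40), the aminopeptidase CTSH (-0.79) and IDS (-0.58) fell most, with SGSH (-0.37), LAMP1 (-0.27) and CTSZ (-0.26). The Panc-1 count fell to 1 without either Panc-1 ANG library of 1 or 24 h, and to 2 without the Panc-1 EGF library of 1 or of 24 h. The AsPC-1 count fell to 6 without its 1 h ANG library, and to 8 without its 1 h EGF library or either 1 h library of Panc-1. Scaling to genes of at least 400 bp gave 13 members in Panc-1 (11 higher, 2 lower) and 16 in AsPC-1 (7 higher, 9 lower), and centring gave 8 (5 and 3) and 16 (5 and 11). The shares of all genes above are those of the main fit, so these counts have no matching share here.

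Counting only members whose 24 h libraries lay apart from the 1 and 5 h libraries, again as a description chosen after the data had been seen, the 24 h level was higher in both lines for SLC17A5, TFEB, CALCOCO1 and GABARAPL1 (4 of 40, against 8.39% of all genes) and lower in both for CTSH (6.87%). It was higher in Panc-1 and lower in AsPC-1 for 6 members, IDS, ARSA, SGSH, CTSL1, CTSZ and PSAP (5.69% of all genes). ARSA entered by a small margin in Panc-1, with 5.12 and 5.22 RPKM at 24 h against 5.11 RPKM with ANG at 1 h. Neither ARSA nor CTSZ passed limma's interaction term (limma adjusted p = 0.143 and 0.0547). IDS, ARSA and SGSH belong to the sulfatase group, in which ARSB was called the other way by that term (-0.55 ± 0.15, limma adjusted p = 0.0268). The 24 h level was lower in Panc-1 and higher in AsPC-1 for MCOLN1, the lysosomal calcium channel (11%). The margin of MCOLN1 was small in AsPC-1, at 7.42 and 7.53 RPKM against at most 7.38 RPKM early. MCOLN1 did not pass the interaction term (limma adjusted p = 0.116). Within Panc-1 alone, 20 of 40 members lay higher at 24 h (27.3% of all genes) and 5 lower (28%). Within AsPC-1 alone, 9 lay higher (32.2%) and 9 lower (22.4%).

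EGF and ANG were not told apart in these genes by the test. Over 6 pairs of line and time, limma called 0 of 40 members (background 0.142% higher and 0.0149% lower of all genes), and at an unadjusted p under 0.05, 1 was higher and 5 lower with EGF. Of all 13427 genes, 2146 passed that unadjusted p in either direction. Among the members, the smallest p belonged to CALCOCO1, at -0.24 ± 0.07 on the log2 scale, EGF minus ANG, lower in 5 of 6 pairs (limma adjusted p = 0.173). ASAH1 was lower in 6 of 6 pairs (-0.29 ± 0.11, limma adjusted p = 0.265) and SMPD1 higher in 6 of 6 (0.24 ± 0.10, limma adjusted p = 0.285), both named after their values were seen. Of the others, GABARAPL1 had -0.22 ± 0.07, TFEB -0.19 ± 0.11, CTSD -0.17 ± 0.09, LAMP1 0.02 ± 0.05, SQSTM1 0.03 ± 0.12, TFE3 0.17 ± 0.08 and MAP1LC3B 0.25 ± 0.12. A p that misses the threshold does not show that the ligands act alike. The ligand difference did not differ between the lines for any member either (0 of 40 called, 0% of all genes, 1 higher and 1 lower at an unadjusted p under 0.05 in limma). For that difference, 1040 of all 13427 genes passed the unadjusted p in either direction.

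The pair that stood farthest apart was 24 h in AsPC-1, with 1 library each and no test. There 31 of 40 members lay below 0 in EGF minus ANG, with a median of -0.31, against 63.1% of all genes and a median of -0.10. ASAH1 had 19.2 RPKM with EGF and 36.8 RPKM with ANG, FUCA1 had 5.35 RPKM with EGF and 10.2 RPKM with ANG, and CTSD had 61.2 RPKM with EGF and 92.2 RPKM with ANG. The genes above 0 included SMPD1, at 9.49 RPKM with EGF and 5.14 RPKM with ANG, and MAP1LC3B, at 5.92 RPKM with EGF and 2.93 RPKM with ANG. No member was 2-fold apart in any of the 6 pairs on the log2(RPKM + 1) scale, where in this pair 1.01% of all genes were higher and 2.36% lower. In RPKM with nothing added, MAP1LC3B lay just past 2-fold in this pair (5.92 against 2.93 RPKM). The share of all genes on that scale was not computed for these pairs. The EGF library of that pair had the lower median of all genes, 3.25 against 3.41 with ANG, and the part this plays in the members' values was not tested.

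**Figure D5:**
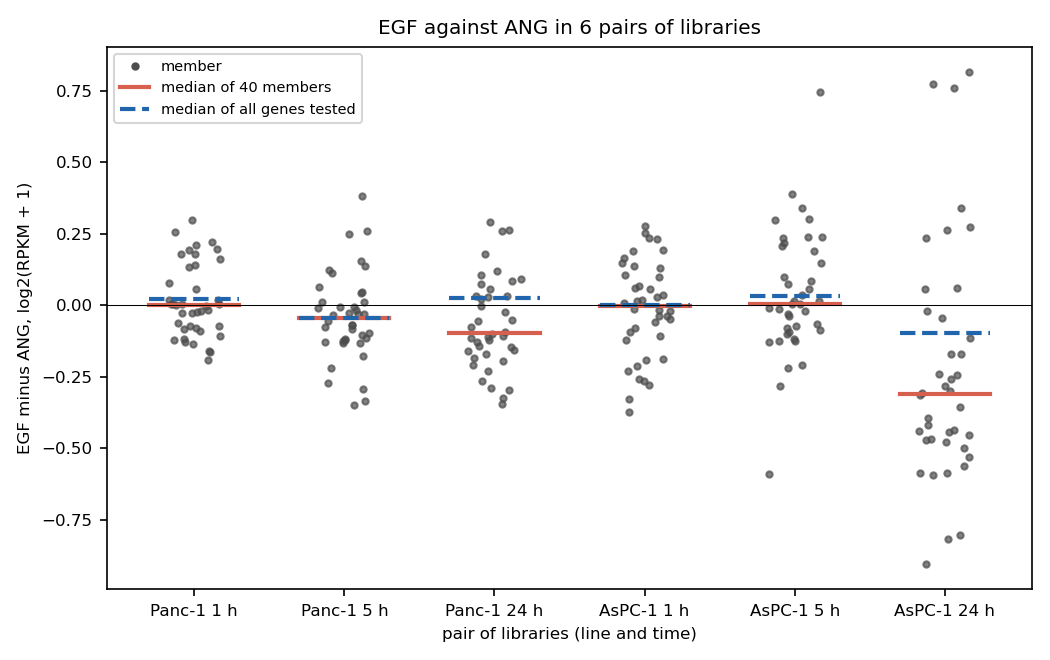
EGF minus ANG in log2(RPKM + 1) for the 40 members, with 1 point per member in each of the 6 pairs of line and time. The points of 24 h in AsPC-1 spread widest, with 31 of 40 below 0.

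Other lysosomal and autophagy genes, 118 tested in 5 lists (hydrolases, membrane and trafficking genes, V-ATPase subunits, autophagy machinery, and mTORC1 with its nutrient sensors), gave few calls against mock or between ligands, and more with time within a line and between the lines. With EGF at 5 h, limma called 1 higher and 3 lower (0.596% and 3.63% of all genes). ATG16L1, which attaches LC3 to membranes as part of the ATG12 complex, was up by 0.93 ± 0.18 (limma adjusted p = 0.0352), WIPI2, which recruits it, was down (-0.98 ± 0.16, limma adjusted p = 0.0218), ATG10, an enzyme that joins ATG12 to ATG5, was down (-0.77 ± 0.15, limma adjusted p = 0.0355), and TSC1, an inhibitor of mTORC1 signalling, was down (-0.63 ± 0.14, limma adjusted p = 0.0494). At 24 h against 1 h over both lines, 3 were higher and 2 lower (3.44% and 2.92% of all genes), with ATG2A, a lipid transfer protein of the forming autophagosome, at 1.22 ± 0.23, WIPI2 at 0.66 ± 0.11 and OPTN, an autophagy receptor, at 0.47 ± 0.09. M6PR, the small mannose 6-phosphate receptor, was lower at -0.35 ± 0.07 (limma adjusted p = 0.0342), and so was FNIP2, a partner of folliculin, at -0.36 ± 0.08 (limma adjusted p = 0.0407). ATG10 and OPTN were named after their values were seen. Of these 118, limma called 0 in the comparisons of EGF at 1 and 24 h and of ANG at 1, 5 and 24 h with mock, of EGF with ANG and of 5 h with 1 h. At an unadjusted p under 0.05, 4 were higher and 28 lower with EGF at 1 h, 2 and 20 with EGF at 24 h, 2 and 28 with ANG at 1 h, 1 and 30 with ANG at 5 h, 0 and 0 with ANG at 24 h, 7 and 13 with EGF against ANG, and 0 and 1 at 5 h against 1 h. Of all 13427 genes, 2310 passed that p in limma with EGF at 1 h and 961 with EGF at 24 h, in either direction. With ANG at 1, 5 and 24 h, 2062, 2391 and 202 genes did. For EGF against ANG 2146 did, and for 5 h against 1 h 149. From 1 to 24 h within a line, 12 rose and 12 fell in Panc-1 (11.3% and 15.2% of all genes), and 29 rose and 18 fell in AsPC-1 (24.8% and 15.9%). Between the lines, 60 of the 118 were higher and 29 lower in Panc-1 (39.6% and 29.3% of all genes). NEU1, the lysosomal sialidase, lay at 21.0 to 43.1 RPKM in Panc-1, against 0.150 to 0.530 RPKM in AsPC-1, and the mitophagy receptor gene BNIP3 at 21.2 to 26.8 RPKM in Panc-1, against 0.0300 to 0.170 RPKM in AsPC-1.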

How the data were processed

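Total RNA was sequenced from 14 libraries, 1 per group, and groups were taken from the labels. The deposited files give 1 log2 RPKM value per gene, so the unit is a log2 value computed by the authors, per the file headers, and per the submitters' processing notes the genome was hg19. Aligner, counter, annotation and strand setting: not given in the sources used here. Coordinates are those of the files, counted from 1. Values were turned back to RPKM, the lowest log2 value of -8.966 being read as 0. Depth was estimated from genes spanning 150 bp or less, as the smallest depth that best placed their values within 0.1 of whole reads. Only values of few reads were scored, and this match was the criterion of the choice, not a separate check.

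The package limma 3.58.1 (R 4.3.3) was fitted, with a variance trend, to log2(RPKM + 1). A gene entered when 2 or more libraries held 1 RPKM or more, which left 13427. P-values were adjusted by Benjamini-Hochberg over these (threshold 0.05). A log2 difference on this scale understates the change of low genes. Mock comparisons used all 14 libraries with the line as a covariate, so the 2 lines are the only repeats. Time and ligand comparisons used the 12 treated libraries with course or pair as a block. The code was tested on simulated data. Text names members past the threshold (at most 12 per comparison), 8 members in every case where they bear on it, and the 2 largest changes per other list. The members and lists were chosen with earlier results of these data known. Alternatives were a pseudocount of 0.1 RPKM, no filter, centring, scaling to genes of at least 400 bp, leaving out times and leaving out each library.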

Additional observations from a re-analysis of the deposited data

Results flagged for a closer look

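The change from 1 to 24 h differed between the lines for 9 members (22.5%, against 36% of all genes) by limma's interaction term (Panc-1 minus AsPC-1, log2, limma adjusted p under 0.05). Of these, IDS (1.25, adjusted p = 0.00283), CTSL1 (1.52, adjusted p = 0.00483) and GLA (-0.82, adjusted p = 0.00856) passed limma's test without any 1 of the 12 libraries. GABARAPL1 (-0.82, adjusted p = 0.00891) passed in 11 of 12 and failed without the Panc-1 EGF 1 h library. SGSH (0.70, adjusted p = 0.0115) passed in 9 and failed without Panc-1 ANG 1 h, Panc-1 EGF 24 h or AsPC-1 ANG 1 h.

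PSAP (0.90, limma adjusted p = 0.0192) passed in 6 of 12. It failed without Panc-1 ANG 1 or 24 h, Panc-1 EGF 1 or 24 h, AsPC-1 ANG 1 h or AsPC-1 EGF 1 h. TFEB (-0.95, limma adjusted p = 0.0257) passed in 6 of 12 and failed without Panc-1 ANG 1 or 24 h, Panc-1 EGF 1 or 24 h, or AsPC-1 ANG 1 or 24 h. ARSB (-0.55, limma adjusted p = 0.0268) passed in 6 of 12 and failed without Panc-1 ANG 1 or 24 h, Panc-1 EGF 1 or 24 h, or AsPC-1 EGF 1 or 24 h. MAP1LC3B (-1.02, limma adjusted p = 0.0379) passed in 3 of 12, those without Panc-1 ANG 24 h, AsPC-1 ANG 1 h or AsPC-1 ANG 24 h.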

How the results depend on the processing

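None of the 48 calls of single members that were refitted changed sign under any alternative run, while small list medians did: that of 24 h against 1 h in AsPC-1 was 0.04 as reported and -0.09 with centring. Among members called, centring gave 0 for EGF at 1 h, 2 for EGF at 5 h and 16 for the difference in time course between the lines, split 13 higher and 3 lower against 4 and 5 as reported. Scaling to genes of at least 400 bp gave 16 for that difference, split the same way, and 13 for 24 h against 1 h in Panc-1. Shares of all genes under these settings are not reported here, so such counts describe the processing only. Without the 24 h libraries, EGF at 1 h gave 0. Leaving out 1 library gave 0 to 2 members for EGF at 1 h, 0 to 4 for EGF at 5 h, 0 to 4 for 24 h against 1 h, 31 to 33 between the lines, 4 to 12 for the difference in time course, 1 to 8 for time in Panc-1 and 6 to 16 for time in AsPC-1, and 0 for the others. The cause was not tested, beyond the smaller number of libraries when 1 is left out. Of 612 results of single members with 1 library left out, 451 kept their side of the threshold and 161 did not. With centring 40 of 48 kept it, with no filter 41, with a pseudocount of 0.1 RPKM 44, and with scaling to longer genes 45. No paired analysis by replicate number was possible because the labels give none and each group holds 1 library, and the blocks used are condition, course and pair of line and time. The depth puts 1 read in 2 kb at 0.0450 RPKM or less, so it limits GAA and other low members most.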

Other observations

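Other genes of the pathway differed in their time course between the lines, 10 with a higher and 23 with a lower change in Panc-1 of 118 tested (limma interaction term, adjusted p under 0.05, against 13.9% and 22.2% of all genes). SESN2, which restrains mTORC1 when leucine is scarce, fell by 2.46 on the log2 scale from 1 to 24 h in Panc-1 (SE 0.32, limma adjusted p = 0.00327) and rose by 2.23 in AsPC-1 (SE 0.32, limma adjusted p = 0.00162). LAMP3, another LAMP-family gene, rose by 0.67 in Panc-1 (limma adjusted p = 0.00538) and fell by 1.31 in AsPC-1 (limma adjusted p = 0.000214). MAP1LC3A, a relative of MAP1LC3B, had a change higher in Panc-1 by 2.01 ± 0.19, and ULK1, the kinase that starts autophagy, one lower by -1.97 ± 0.34 (SE, limma adjusted p = 0.000401 and 0.00460).

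By list, 13 of 37 autophagy machinery genes rose and 3 fell from 1 to 24 h in AsPC-1, led by NBR1 (1.84 ± 0.11) and ATG2A (1.75 ± 0.11), and 7 rose and 2 fell in Panc-1. Of 24 mTORC1 and nutrient-sensing genes, 1 rose and 8 fell in Panc-1, and 9 rose and 1 fell in AsPC-1. The shares of all genes were 11.3% higher and 15.2% lower in Panc-1, and 24.8% higher and 15.9% lower in AsPC-1.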
